A study of Mus musculus with 18 samples.

Results

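Mitochondrial ribosomal proteins were followed in Kupffer cells, macrophages that live in the liver sinusoids, after acetaminophen, which in overdose damages hepatocytes. The members were all genes whose symbol is Mrpl or Mrps followed by a number and at most 1 letter, and which stood in each of the 3 deposited tables. There were 78 such genes, of 18853 rows in the table of the 0 h and 3 h libraries, 18373 in that of the 6 h and 12 h libraries and 24781 in that of the antibody groups. By name, 49 belong to the large subunit (Mrpl) and 29 to the small subunit (Mrps). The names and the structure of the ribosome differ at 3 points: Mrps18a and Mrps30 encode proteins that lie in the large subunit, and Mrps36 encodes a protein that belongs to the 2-oxoglutarate dehydrogenase complex. All 78 passed the filter on low counts in every comparison.

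Mitochondria have ribosomes of their own, which make the few proteins encoded in mitochondrial DNA, all of them subunits of the respiratory chain and the ATP synthase. All proteins of these ribosomes are encoded in the nucleus, made in the cytosol and imported. Many have a counterpart in bacterial ribosomes, and others exist in mitochondria alone. The small subunit holds the decoding centre, and the large subunit holds the peptidyl transferase centre, the stalk that recruits elongation factors and the exit tunnel, which faces the inner membrane.

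RNA was sequenced in 18 libraries in 6 groups of 3, all from wild-type C57BL/6J mice. The time course had groups at 0 h, 3 h, 6 h and 12 h of acetaminophen. The 0 h columns are named for PBS, while the treatment label of these samples names acetaminophen, so they are called by their time. In the other groups, mice received acetaminophen with control IgG, or acetaminophen with an antibody to CD41, a platelet integrin subunit. Such antibodies serve to remove platelets. For these groups no time is labelled, and for no group an age, sex or dose. The cells came from collagenase perfusion, a density gradient and adherence to a dish. The labels do not say that the 3 samples of a group came from separate animals, and p-values then measure a spread that may be technical.

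Total counts ran from 18644317 to 20583052 per library in the time course and from 28017439 to 38382509 in the antibody groups. The 11 Kupffer cell markers summed to 9610 to 22210 CPM (the count as a share of the library total, times 1000000) per library, and none was at 0 in any library. Markers of other liver cells were present as well. The sums over libraries were 949.1 to 9318 CPM for 16 hepatocyte markers, 1422 to 10930 CPM for 10 sinusoidal endothelial markers, 372.2 to 4937 CPM for 10 neutrophil markers and 54.6 to 369.6 CPM for 10 platelet markers. In RNA from a mixture of cells, fewer cells of a type and less RNA per cell cannot be told apart. The 12 h libraries lay far from each other. Over genes, the chi-square per degree of freedom was 334.7 between replicates 1 and 2, 259.2 between 1 and 3 and 199.4 between 2 and 3, against 41.3 to 81.5 between the 6 h libraries. Replicate 2 was the high library for the members and replicate 1 the low one, so the members' differences at 12 h are also given without each.

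The members lie on 17 chromosomes of the GRCm38 genome, with 11 of them on chromosome 11, 8 on chromosome 17 and 7 on chromosome 6. Promoter windows from RefSeq (GRCm38.p6, 250 bases before to 50 after the start) were held for 69 members, in 75 windows. Short motifs were searched as exact letters on both strands. The ETS core CCGGAA, bound by the GABP factor among others, was in 57.3% of the members' windows, in 24.7% of the 14370 windows of genes tested at 3 h and in 14.9% of all 32851 windows. The NRF1 core TGCGCA was in 29.3%, 12.3% and 7.76% of the same windows, and the YY1 core AAGATGGC in 16%, 3.95% and 2.75%. NRF1, GABP and YY1 are known regulators of nuclear genes for mitochondrial proteins. The GC box GGGCGG was in 52% of the members' windows and in 58% of those of tested genes. The longer ETS letters CCGGAAGT contain the ETS core, and were in 16% and 7.1%. The full NRF1 palindrome, which contains the NRF1 core, was in 4% and 1.84%. A match is a description of letters and not a bound site.

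The stretches printed here are parts of such windows, from before the start only and cut short where an annotated exon lies. The shares were counted over whole windows, so a stretch without a core does not show that its window holds none. Mrps27 and Mrps17 fell at 3 h and hold a core, and Mrps2 fell and holds none. Mrps9, whose difference at 3 h was positive, holds none either. Of 6 stretches cut out in this way, those of Mrpl20 and Mrpl55 are not printed. Both of these genes fell at 3 h, and neither stretch holds a core. Each printed stretch ends at the base before the RefSeq start and holds no annotated exon. Capitals mark the ETS core or the NRF1 core on either strand. The stretches are chr13:99344706-99344785 for Mrps27, chr5:129715247-129715496 for Mrps17, chr2:28467816-28468065 for Mrps2 and chr1:42850983-42851232 for Mrps9, all on the plus strand.
Mrps27: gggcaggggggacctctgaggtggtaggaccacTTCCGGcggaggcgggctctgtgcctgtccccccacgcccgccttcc
Mrps17: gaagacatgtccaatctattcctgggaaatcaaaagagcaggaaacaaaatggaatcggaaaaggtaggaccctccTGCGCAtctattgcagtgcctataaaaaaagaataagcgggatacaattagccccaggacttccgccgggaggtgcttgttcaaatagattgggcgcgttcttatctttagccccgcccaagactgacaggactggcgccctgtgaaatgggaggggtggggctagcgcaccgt
Mrps2: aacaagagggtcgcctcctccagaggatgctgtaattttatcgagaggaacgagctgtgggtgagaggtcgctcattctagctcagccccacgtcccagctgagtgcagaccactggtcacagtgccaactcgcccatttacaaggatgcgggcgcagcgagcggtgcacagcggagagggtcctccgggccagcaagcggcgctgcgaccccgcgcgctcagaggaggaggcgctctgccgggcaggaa
Mrps9: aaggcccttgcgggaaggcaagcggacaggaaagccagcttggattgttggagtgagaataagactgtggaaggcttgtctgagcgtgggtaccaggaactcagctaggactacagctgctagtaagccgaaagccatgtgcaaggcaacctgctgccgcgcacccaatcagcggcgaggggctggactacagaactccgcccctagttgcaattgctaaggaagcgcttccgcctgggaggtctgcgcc
Mrps27 carries the ETS core, written here as its reverse complement, and Mrps17 the NRF1 core. The stretch of Mrps27 is short because exons of the divergent gene Ptcd2 begin behind it.

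At 3 h the mitochondrial ribosomal protein genes fell together in both subunits. Of the 78 members, 61 were called lower at 3 h than at 0 h, 0 were called higher and 17 were not called, at an adjusted p under 0.05 (edgeR, quasi-likelihood, Benjamini-Hochberg over 14161 genes). Among all genes tested, 23.0% were called lower and 19.1% higher. The members' median log2 difference was -0.74, from -1.45 to 0.35, and the median of all genes tested was -0.01. The difference was negative for 77 members and positive for 1, where 50.7% of all genes were negative. For 70 members every 3 h library lay below every 0 h library in CPM, against 32.2% of all genes tested. Among the called members, 15 fell by at least 1 on the log2 scale. Single libraries moved the count, for the members and for all genes. Without 0 h replicate 2, 39 members and 14.7% of all genes were called lower, and without 3 h replicate 3 these were 38 members and 12.9%. The number of members called whichever library was left out was 36.

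Summed over the 78 members, the 0 h libraries held 1474, 1917 and 1927 CPM and the 3 h libraries held 1054, 1107 and 922.7 CPM. The groups did not overlap. Replicate 1 was the low library at 0 h: it held the lowest 0 h value of 74 members. Replicate 3 was the low library at 3 h, with the lowest of all 6 values for 61 members.

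**Figure D1:**
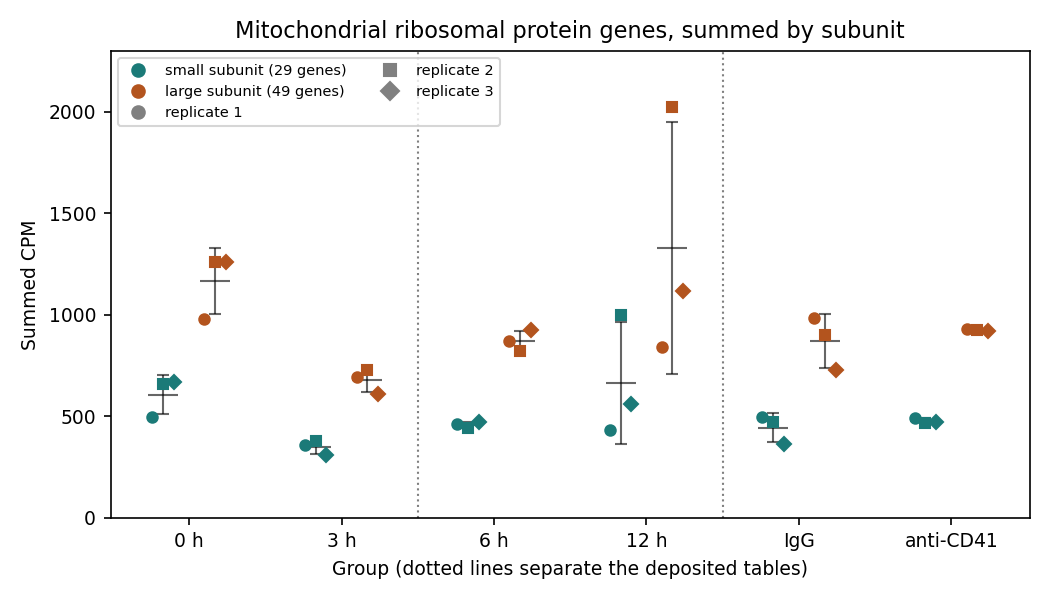
Summed CPM (y axis) of the 29 small subunit genes and the 49 large subunit genes in each of the 18 libraries, by group (x axis); symbols stand for replicates, and horizontal marks and bars are the group mean and SD (n = 3). The 3 h libraries lie below the 0 h libraries in both subunits, and replicate 2 at 12 h is the highest library at 1000 CPM for the small and 2025 CPM for the large subunit.

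Both subunits were lower at 3 h. In the small subunit 22 of 29 genes were called lower, with a median log2 difference of -0.76, and the sum went from 606 ± 96.6 CPM (SD, n = 3) at 0 h to 350 ± 34.3 CPM at 3 h. In the large subunit 39 of 49 were called lower, with a median of -0.73, and the sum went from 1167 ± 162 CPM to 678 ± 60.8 CPM. With genes placed by structure instead of name, 20 of 26 small subunit genes and 40 of 51 large subunit genes were called lower. Without 0 h replicate 2 the calls were 14 in the small and 25 in the large subunit, and without 3 h replicate 3 they were 14 and 24. The ratio of the large to the small sum was on average 1.93 at 0 h and 1.94 at 3 h, and it lay between 1.86 and 2.02 in all 18 libraries.

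Mrpl15, a large subunit protein with a bacterial counterpart, is encoded on the minus strand at chr1:4773206-4785739. It had 27.1, 44.3 and 36.7 CPM in the 0 h libraries and 11.9, 13.4 and 12.3 CPM in the 3 h libraries. The groups were far apart, and the log2 difference of -1.45 (SE 0.19, adjusted p = 0.00323) was the most negative among members. Mrps27, a small subunit protein with pentatricopeptide repeats that bacteria lack, had 21.1, 31.2 and 25.8 CPM at 0 h and 11.6, 9.93 and 8.80 CPM at 3 h. Its log2 difference was -1.29 (SE 0.17, adjusted p = 0.00328), with all 3 h libraries lower.

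Mrpl51, a mitochondria-specific protein of the large subunit, had 22.0, 30.6 and 28.6 CPM at 0 h and 12.7, 13.3 and 10.9 CPM at 3 h, a log2 difference of -1.06 (adjusted p = 0.00383). Mrps15, a small subunit protein with a bacterial counterpart, had 25.01, 29.5 and 28.9 CPM at 0 h and 14.3, 15.5 and 15.1 CPM at 3 h. The 3 h libraries of Mrps15 lay close to each other and all below 0 h, with a log2 difference of -0.81 (adjusted p = 0.004). Mrpl53 is also mitochondria-specific, and its CPM went from 8.99, 12.9 and 12.3 to 4.71, 4.94 and 4.56 (log2 difference -1.19, adjusted p = 0.00419). Its exons overlap those of another protein-coding gene, Gm42688, so its counts are uncertain. Mrpl19, a large subunit protein with a bacterial counterpart, varied little within groups, with 17.9, 19.1 and 18.3 CPM at 0 h and 10.7, 11.0 and 9.98 CPM at 3 h (log2 difference -0.73, adjusted p = 0.00426). Exons of Mrpl19 overlap those of Gcfc2, so its counts are uncertain too.

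The other 4 of the 10 members called with the smallest p were Mrps18b, Mrpl54, Mrpl36 and Mrpl17. Mrpl17, the counterpart of a bacterial protein near the exit tunnel, had 43.1, 52.7 and 46.3 CPM at 0 h and 18.7, 26.7 and 18.2 CPM at 3 h. Its groups were apart and its log2 difference was -1.09 (adjusted p = 0.00497). Mrpl54, which bacteria lack, differed by -0.72 (adjusted p = 0.00466), and Mrpl36, the counterpart of a small bacterial protein, by -0.88 (adjusted p = 0.00496). Exons of Mrpl36 overlap those of Ndufs6, which makes its counts uncertain.

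**Figure D2:**
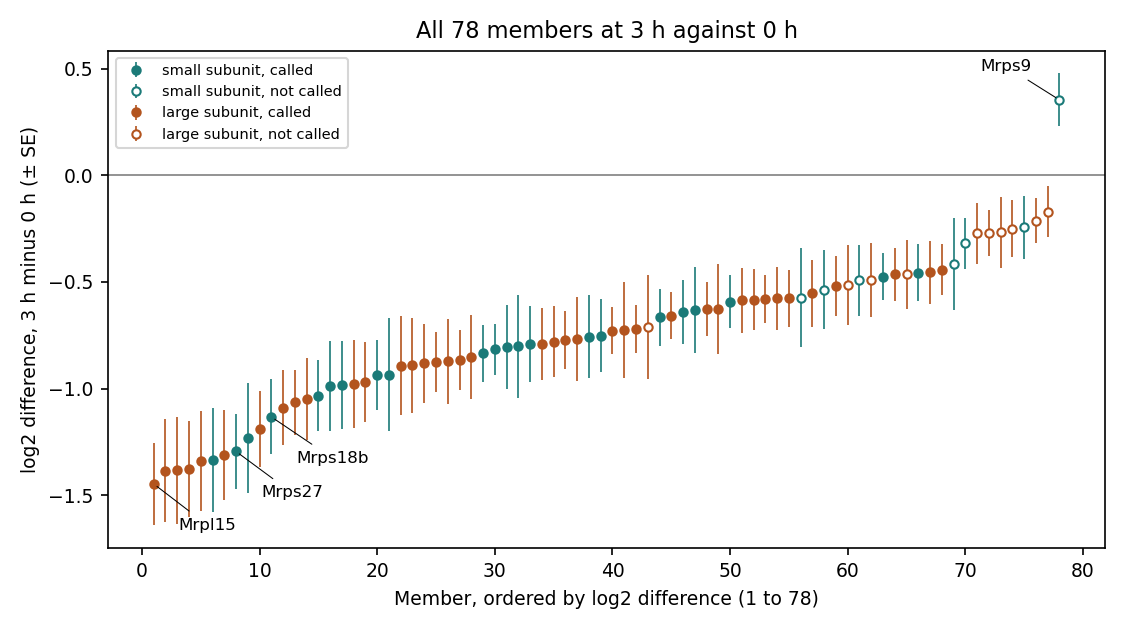
Log2 difference between 3 h and 0 h (y axis, with its standard error) of each of the 78 members, ordered along the x axis; colour gives the subunit by name, and filled points passed the threshold. All points but that of Mrps9 lie below 0, and the 17 open points lie mostly at the right.

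Mrps18 has 3 copies in mammals, which differ in place: Mrps18b and Mrps18c are in the small subunit and Mrps18a in the large subunit. Mrps18b had 35.7, 42.4 and 43.1 CPM at 0 h and 14.7, 22.0 and 15.7 CPM at 3 h, with no overlap (log2 difference -1.13, SE 0.18, adjusted p = 0.0046). Mrps18a had 18.6, 21.5 and 21.4 CPM at 0 h and 14.2, 14.02 and 13.7 CPM at 3 h, also with no overlap (log2 difference -0.48, SE 0.11, adjusted p = 0.0143). For Mrps18c the log2 difference was -0.46 (SE 0.13, adjusted p = 0.0309). All 3 were called lower. Mrps18a lost its call without 0 h replicate 2 (adjusted p = 0.058), and Mrps18c lost it without any 1 of 5 libraries, all but 0 h replicate 1 (adjusted p from 0.0595 to 0.107). Whether the copies differ from each other was not tested.

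In the stalk of the large subunit, Mrpl12 is the protein that contacts elongation factors, and Mrpl10 and Mrpl11 form its base. Mrpl12 had 29.2, 56.3 and 53.8 CPM at 0 h and 18.8, 17.95 and 14.1 CPM at 3 h. Replicate 1 was the low library at 0 h and still lay above every 3 h library (log2 difference -1.38, adjusted p = 0.00691). Mrpl11 was called lower with a log2 difference of -0.59 (adjusted p = 0.0214), a call lost without 0 h replicate 2 or 3 or 3 h replicate 1 or 3 (adjusted p from 0.0608 to 0.079). Mrpl10 had 27.8, 37.8 and 43.6 CPM at 0 h and 26.3, 26.8 and 20.7 CPM at 3 h and was not called (log2 difference -0.49, adjusted p = 0.0565), but it was called lower without 0 h replicate 1 (adjusted p = 0.00925). Mrps12, of the decoding centre, had 13.0, 21.9 and 21.2 CPM at 0 h and 6.33, 9.82 and 6.49 CPM at 3 h (log2 difference -1.23, adjusted p = 0.0107). Mrpl45, which ties the tunnel exit to the inner membrane, was called lower with -0.63 (adjusted p = 0.00952). Mrpl58, a peptidyl-tRNA hydrolase built into the large subunit, was chosen for this role after its values were seen and was called lower with -0.88 (adjusted p = 0.0106). Mrps36, of the dehydrogenase complex, was called lower with -0.64 (adjusted p = 0.0152), which was lost without 0 h replicate 2 (0.0603) or 3 h replicate 3 (0.0503). Mrps30, of the large subunit, had -0.32 and was not called (adjusted p = 0.067), but was called lower without 0 h replicate 1 (0.0257).

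Mrps9, a small subunit protein with a bacterial counterpart, was the member with a positive difference. It had 16.4, 16.4 and 18.8 CPM at 0 h and 24.4, 19.1 and 19.3 CPM at 3 h. The 3 h libraries were all higher, the log2 difference was 0.35 (SE 0.12), and it was not called (adjusted p = 0.0569). It was called higher under 4 alternatives, which were DESeq2 size factors within edgeR (adjusted p = 0.0444), DESeq2 (0.0384), the fit without 3 h replicate 2 (0.047) and limma voom with library weights (0.0478). Among the other members that were not called, Mrpl27 had -0.17 (adjusted p = 0.29) and Mrpl3 had -0.21 (adjusted p = 0.142). The adjusted p of the called members ended at 0.05 with Mrpl13, and the next value was 0.0512 for Mrps11.

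**Figure D3:**
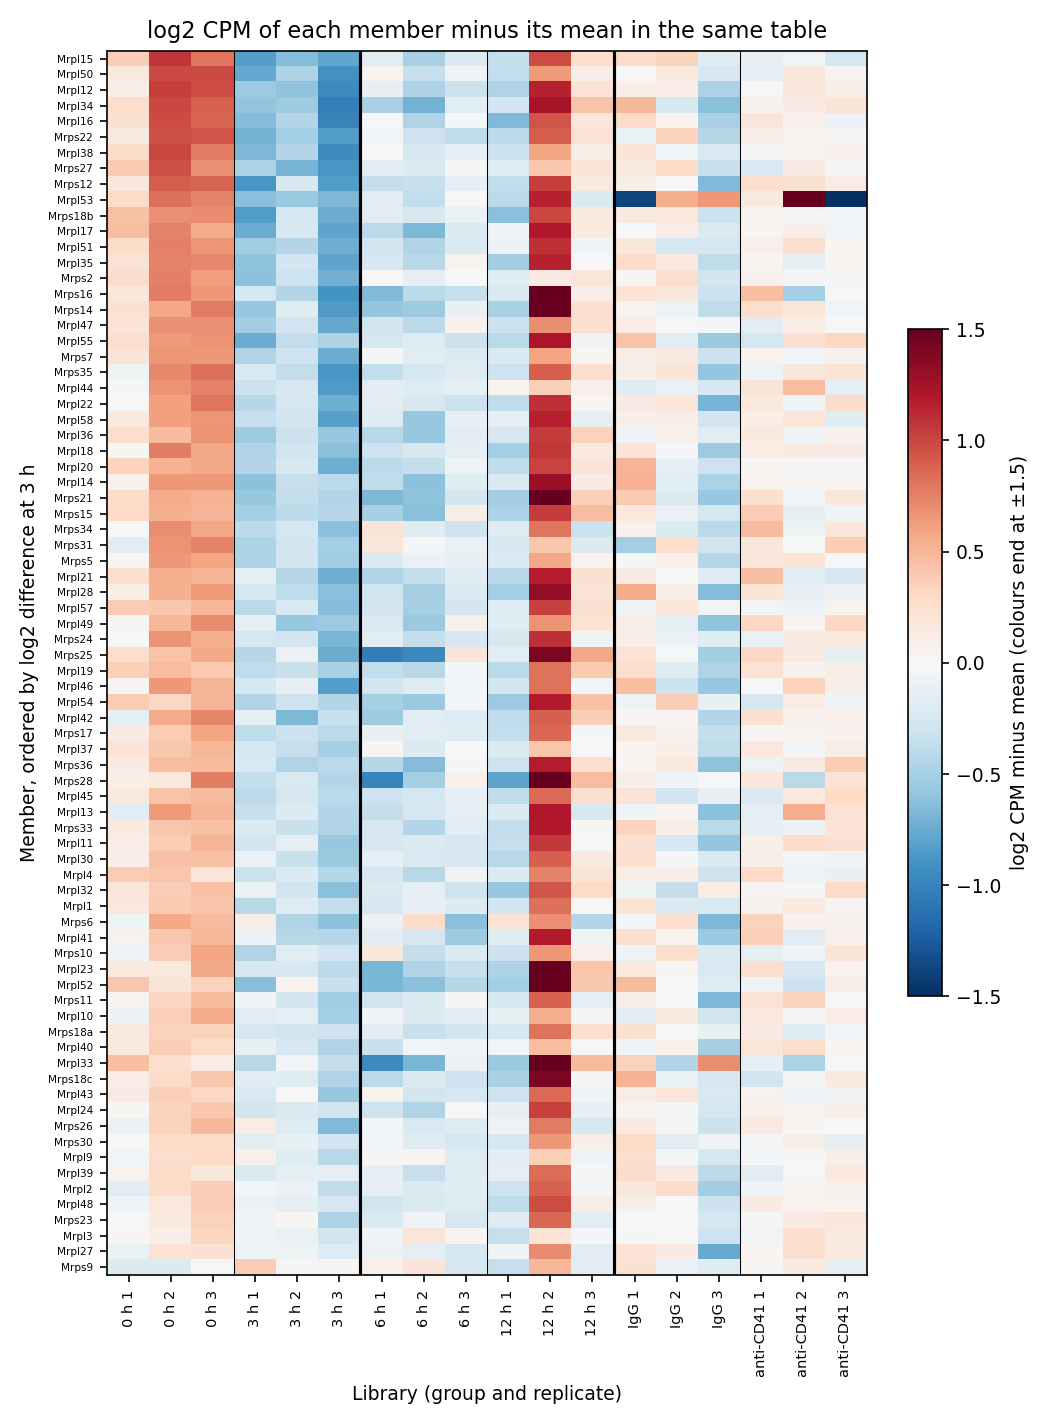
Log2 CPM of each of the 78 members (rows, ordered by their difference at 3 h) in each of the 18 libraries (columns), less the member's mean over the 6 libraries of the same table; the colour scale ends at ±1.5. The 3 h columns are blue against the 0 h columns in nearly all rows, replicate 2 at 12 h is the reddest column, and Mrpl53 swings between libraries of the antibody table.

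Members with and without a bacterial counterpart were counted apart. Of 48 members with a bacterial counterpart, 38 were called lower, with a median log2 difference of -0.77. Of 29 mitochondria-specific members, 22 were called lower, with a median of -0.73. Of the 40 members with the ETS core in a promoter window 29 were called lower, and of the 29 members with windows without it 23 were.

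Cytosolic ribosomal proteins, which make up the ribosome outside mitochondria, were counted for comparison. Of 81 tested genes, 2 were called lower and 1 higher, and their median log2 difference was 0.009.

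Levels per length, as the deposited FPKM, were used to rank the members against each other. The order depends on the length that count and FPKM imply for each gene. At 0 h the highest mean was that of Mrpl52, a mitochondria-specific large subunit protein, at 108 ± 8.26 FPKM (SD, n = 3). Mrps21 at 50.6 ± 5.27 and Mrpl12 at 49.8 ± 16.1 FPKM came next and did not differ beyond their spread. The lowest means were those of Mrpl35 at 4.94 ± 0.94, Mrpl19 at 3.71 ± 0.13 and Mrps25 at 3.54 ± 0.37 FPKM, and the last 2 overlapped. The implied lengths were 363 bases for Mrpl52, 436 for Mrps21 and 932 for Mrpl12. They were 3648 bases for Mrpl35, 4966 for Mrpl19 and 6028 for Mrps25. In CPM, which is not per length, Mrps21 and Mrps25 lay close at 0 h, with means of 22.0 and 21.3. The median of the members' mean FPKM was 19.4 at 0 h, 11.7 at 3 h, 15.0 at 6 h and 21.7 at 12 h, or 16.8 at 12 h without replicate 2. The 6 h and 12 h values come from a separate table, so no test was made between them and the earlier times.

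Genes that work with the mitochondrial ribosome were counted from lists of textbook members. Of 5 mitochondrial ribosomal proteins with other names, 3 were called lower, against 23.0% of all genes. Chchd1, a small subunit protein, had 12.9, 14.8 and 15.4 CPM at 0 h and 5.44, 6.53 and 5.95 CPM at 3 h (log2 difference -1.19, adjusted p = 0.00273). Ptcd3, a pentatricopeptide repeat protein of the small subunit, differed by -0.80 (adjusted p = 0.00329), and Gadd45gip1, of the large subunit, by -1.25 (adjusted p = 0.00561). Dap3, a GTP-binding small subunit protein, was at -0.04 (adjusted p = 0.794) and Aurkaip1 at -0.30 (adjusted p = 0.128).

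Of 26 assembly factors, 9 were called lower and 0 higher (median log2 difference -0.35). Among them Tfb1m, the methyltransferase of the small ribosomal RNA, had 3.85, 7.02 and 6.49 CPM at 0 h and 1.20, 1.59 and 1.61 CPM at 3 h, a log2 difference of -1.90 (adjusted p = 0.0046). The large subunit RNA methyltransferase Mrm3 differed by -1.67 (adjusted p = 0.00329) and the GTPase Noa1 by -0.73 (adjusted p = 0.00505). Of 16 translation factors, 9 were called lower and 0 higher (median -0.63). Tufm, the mitochondrial elongation factor that brings tRNAs to the ribosome, had 50.3, 74.5 and 68.6 CPM at 0 h and 21.6, 25.8 and 18.6 CPM at 3 h (log2 difference -1.48, adjusted p = 0.0027). Taco1, a translational activator, differed by -1.85 (adjusted p = 0.00423) and Gfm2, a ribosome recycling factor, by -0.96 (adjusted p = 0.00525). In both lists the called share was higher than the 23.0% of all genes called lower, in the fit with all libraries. Transcript length was not taken into account in this.

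Of 17 mitochondrial tRNA synthetases, 4 were called lower and 1 higher (median -0.25), a share near that of all genes. Mars2 differed by -1.16 (adjusted p = 0.00712), Yars2 by -0.95 (adjusted p = 0.00503) and Iars2 by 0.43 (adjusted p = 0.0209). Of 15 genes of mitochondrial transcription and RNA stability, 5 were called lower and 1 higher (median -0.41), against 23.0% lower and 19.1% higher among all genes. The RNA-binding protein Lrpprc had 51.0, 72.7 and 75.7 CPM at 0 h and 30.6, 34.0 and 29.9 CPM at 3 h (adjusted p = 0.00485). The elongation factor Tefm differed by -1.20 (adjusted p = 0.00781) and the poly(A) polymerase Mtpap by 0.33 (adjusted p = 0.0275).

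Of 10 transcriptional regulators of mitochondrial genes, 3 were called lower and 1 higher (median -0.08), against 23.0% lower and 19.1% higher among all genes. With so few genes, the share called lower is near that of all genes. The coactivator Pprc1 had means of 117 ± 10.7 (SD) and 72.8 ± 13.3 CPM over the 3 libraries at 0 h and 3 h, and differed by -0.61 (adjusted p = 0.0191). Myc differed by -0.42 (adjusted p = 0.0187) and Perm1 by -0.96 (adjusted p = 0.00686), while Gabpb1, a subunit of GABP, was called higher with 0.52 (adjusted p = 0.0473). Nrf1 was at 0.11 (adjusted p = 0.504), Gabpa at 0.02 (adjusted p = 0.839) and Yy1 at 0.23 (adjusted p = 0.111).

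Cell type markers also differed between 0 h and 3 h, some in the members' direction and others against it. The 16 hepatocyte markers summed to 4841, 9318 and 9187 CPM at 0 h and to 1587, 4084 and 3051 CPM at 3 h, and 9 of the 16 were called lower. Replicate 1 was the low library at 0 h for these markers and for the members. The 10 neutrophil markers summed to 536.6 to 1564 CPM at 0 h and to 1896 to 3547 CPM at 3 h, with 6 called higher, and all 7 tested of the 10 platelet markers were called higher. Kupffer cell markers summed to 11170 to 15780 CPM at 0 h and to 14110 to 18380 CPM at 3 h, with 4 of 11 called higher. Sinusoidal endothelial markers summed to 5363, 6639 and 5629 CPM at 0 h and to 6718, 6697 and 7173 CPM at 3 h, without overlap, with 2 of 10 called higher and 1 lower. The part of these cells in the members' difference was not tested.

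Transcript length moved with the differences too. Most members are short: the lengths implied by count and FPKM had a median of 1017 bases, against 2781 for all genes with such a length. The 13427 genes tested at 3 h for which a length could be implied (at least 0.5 FPKM and a count of 10) were ranked by it and cut into 4 groups of nearly equal size. In the group of shortest genes, which held 63 members, 35.2% of all these genes and 47 members were called lower, with median log2 differences of -0.26 and -0.72. In the 3 groups of longer genes 8 of 9, 3 of 3 and 3 of 3 members were called lower, while 26.6%, 20.4% and 14.1% of all genes were. The members' median was below that of all genes in each group.

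**Figure D4:**
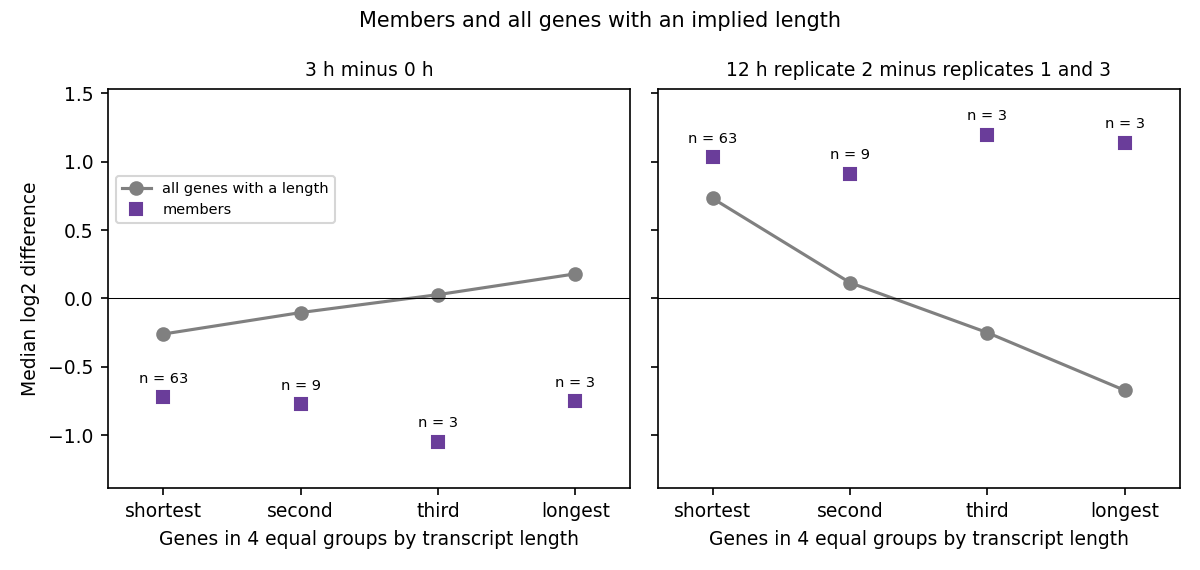
Median log2 difference (y axis) of all genes with an implied length and of the members, in 4 groups of nearly equal size ordered by that length (x axis), for 3 h against 0 h (left) and for 12 h replicate 2 against replicates 1 and 3 (right); n is the number of members. The grey medians go from -0.26 to 0.18 on the left and from 0.73 to -0.67 on the right, and the members lie apart from them in every group.

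Some members could share reads with their neighbours. This was judged from annotated exons on either strand, and the reads were not examined. Exons of 23 members overlap those of another protein-coding gene, and 3 members have pseudogenes named after them. Among the members named in the text, those with overlapping exons include Mrpl13, Mrpl19, Mrpl27, Mrpl36, Mrpl49, Mrpl53, Mrps11, Mrps25, Mrps30 and Mrps34. Of the 55 members without such an overlap, 44 were called lower at 3 h. The counting could assign reads of the 23 to either gene.

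No member passed the threshold between 12 h and 6 h. All 78 were uncalled, as were all 14010 genes tested, of which 5.18% had an unadjusted p under 0.05 by edgeR, and the smallest adjusted p of a member was 0.697. With DESeq2, 0 members and 3 of all genes (1 lower, 2 higher) were called. The log2 difference was positive for 76 members, with a median of 0.56 and a range from -0.11 to 1.46, and 10 members had an unadjusted p under 0.05. For 6 members every 12 h library lay above every 6 h library, against 3.61% of all genes tested.

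The 12 h values depended on single libraries. The sums over the members were 1330, 1267 and 1394 CPM at 6 h and 1273, 3025 and 1677 CPM at 12 h. Replicate 2 was the highest of the 6 libraries for 77 of 78 members, and its log2 distance from replicates 1 and 3 had a median of 1.02 over the members and -0.06 over all genes. Without replicate 2 the members' median difference between 12 h and 6 h was 0.12, with 16 members negative, 1 with an unadjusted p under 0.05 and a smallest adjusted p of 0.943. Replicate 1 was the lowest 12 h library for 72 members. Without it the median was 0.86, with 47 members at an unadjusted p under 0.05 and a smallest adjusted p of 0.0923, but 26% of all genes then had an unadjusted p under 0.05.

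Mrpl52 had 20.0, 20.9 and 24.0 CPM at 6 h and 22.6, 116.9 and 42.6 CPM at 12 h (log2 difference 1.46, adjusted p = 0.697). Replicate 1 at 12 h lay within the 6 h values, and replicate 2 far above them. Mrpl17 had 27.1, 22.4 and 30.9 CPM at 6 h and 34.3, 81.9 and 39.5 CPM at 12 h, with all 12 h libraries higher (log2 difference 0.94, adjusted p = 0.697). Mrpl34, a large subunit protein with a bacterial counterpart, differed by 1.01 (adjusted p = 0.697).

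The subunits had 458 ± 13.7 and 663 ± 299 CPM for the small and 872 ± 50.1 and 1328 ± 619 CPM for the large subunit at 6 h and 12 h (SD, n = 3 each). Without replicate 2 the 12 h sums were 430.6 and 559.1 CPM for the small and 842.4 and 1117 CPM for the large subunit. The cytosolic ribosomal proteins were also high in replicate 2, where they summed to 61550 CPM, against 20180 and 29870 CPM in replicates 1 and 3. Short genes as a whole stood high there: the median distance of replicate 2 from the other 12 h libraries was 0.73 in the group of shortest genes and -0.67 in that of longest genes. The members' medians were 1.03 among the shortest genes (63 members) and 1.14 among the longest (3 members). Markers of other cells differed between the 12 h libraries as well. In replicates 1, 2 and 3, sinusoidal endothelial markers summed to 9636, 4845 and 1422 CPM, platelet markers to 369.6, 75.3 and 54.6 CPM, hepatocyte markers to 3666, 3747 and 1344 CPM, neutrophil markers to 941.2, 1044 and 1038 CPM and Kupffer cell markers to 13880, 12040 and 14190 CPM. Replicate 1 was the highest for endothelial and platelet markers. The part of these cells in the members' values at 12 h was not tested.

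Between anti-CD41 and IgG the members showed no common direction. Of 78 members 0 were called by edgeR, against 0.0738% of all 14905 genes tested, and 0 members were called by DESeq2, which called 469 of all genes lower and 652 higher. The log2 difference was negative for 38 members and positive for 40, with a median of 0.02, and the members' standard errors had a median of 0.17. The range was from -0.58 to 0.35. A single member had an unadjusted p under 0.05, against 18.5% of all genes.

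That member was Mrpl15, with 22.8, 23.8 and 16.7 CPM in the IgG libraries and 17.4, 18.5 and 15.8 CPM in the anti-CD41 libraries. The groups overlapped, and the log2 difference was -0.38 (SE 0.15, adjusted p = 0.236). Next in order of p came Mrpl33, with -0.58 (adjusted p = 0.365), and Mrpl49, with 0.32 (adjusted p = 0.396). All anti-CD41 libraries were above all IgG libraries for 2 members, Mrpl42 and Mrps12, against 18.2% of all genes. Mrps12 had 11.2, 10.6 and 6.69 CPM with IgG and 12.6, 12.4 and 11.46 CPM with anti-CD41 (adjusted p = 0.493).

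The sums of the members were 1480, 1374 and 1090 CPM with IgG and 1423, 1393 and 1393 CPM with anti-CD41. IgG replicate 3 was low: it held the lowest IgG value of 69 members. The same library held 4937 CPM of neutrophil markers, against 1290 and 1085 CPM in the other IgG libraries. Hepatocyte markers summed to 1131, 1282 and 1020 CPM in the IgG libraries and to 949.1, 2575 and 2703 CPM in the 3 anti-CD41 libraries. The part of neutrophils and hepatocytes in the members' values was not tested. Without IgG replicate 3 the members' median log2 difference was -0.08 and 0 members were called. Mrpl53, whose exons overlap Gm42688, had 0.357, 1.36 and 1.46 CPM with IgG and 1.02, 3.12 and 0.287 CPM with anti-CD41 and carried the largest standard error of the members, 0.88.

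The 13 protein-coding genes of mitochondrial DNA, whose RNAs these ribosomes translate, were held in the antibody table. Of 13 tested, 0 were called, against 0.0738% of all genes, with a median log2 difference of 0.12. These are RNA values, and the proteins made were not measured.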

How the data were processed

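Total RNA sequencing of Kupffer cells was used from 18 libraries. Reads were aligned with HISAT2 to GRCm38, per the submitters' processing notes (no version given). The program and annotation behind the counts are not stated there or in the labels. The deposited files of the authors hold expected counts and FPKM in the 2 time-course tables and whole-number counts in the antibody table, per the file headers. Of these expected counts, 35.6% (0 h and 3 h) and 35.9% (6 h and 12 h) were not whole, and they were rounded. In the antibody table, 27 symbols that had turned into dates were restored by identifier. Where identifiers shared a symbol, the one with the largest total kept it, and the 19 other rows stayed in under their identifiers.

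The comparisons were fitted separately, each on 1 table, with genes kept by filterByExpr (minimum count 10), TMM scaling and the two-sided quasi-likelihood test of edgeR 4.0.16 in R 4.3.3. All genes tested entered the Benjamini-Hochberg adjustment, and adjusted p under 0.05 was called. CPM is the count divided by the library total, times 1000000. The time-course data held expected counts with FPKM beside them, and these counts were rounded to whole numbers for edgeR. Lengths were implied from count and FPKM. Motifs, neighbours and exon overlaps use RefSeq and GENCODE on GRCm38. The test was tried on simulated counts with known changes. An exact test of 3 against 3 libraries cannot go below p = 0.1, so none was used.

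The text names up to 10 called members with the smallest p in each comparison, or 3 where none was called. It also names the 3 highest and 3 lowest by FPKM at 0 h, a fixed set of members with known roles, and up to 3 called genes of each other list. Outside this rule it names Gabpb1 and the uncalled Dap3, Aurkaip1, Nrf1, Gabpa and Yy1. Members and lists were chosen with earlier results of these data known. The split by bacterial counterpart, the motifs, the cytosolic ribosomal proteins and limma voom with library weights (limma 3.58.1) were chosen after the data were seen, as were Mrps9, Mrpl13, Mrps11, Mrpl27, Mrpl3, Mrpl42 and Mrpl53 in the text. The alternatives left out 1 library at a time or used DESeq2 size factors, DESeq2 1.42.0, no filter, a replicate block and limma on log2(FPKM + 1) or log2(FPKM + 0.1). All replicate pairs differed by more than counting noise (chi-square per degree of freedom 15.8 or more).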

Additional observations from a re-analysis of the deposited data

How the results depend on the processing

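At 3 h, 36 of the 61 called members were called lower under every alternative run, and the number called lower was 38 to 68 when 1 library was left out. Leaving out 0 h replicate 2 gave 39 and 3 h replicate 3 gave 38, with 14 small subunit members in both cases and 25 and 24 large subunit members. Over all single left-out libraries the small subunit had 14 to 26 and the large subunit 24 to 42 members called lower, and the small subunit had 0 to 1 called higher. The number called higher in the small subunit was 1, Mrps9, under DESeq2 size factors, DESeq2, the fit without 3 h replicate 2 and voom, against 0. The members called lower numbered 61 with DESeq2 size factors, 65 with DESeq2, 59 with no filter, 68 with each FPKM pseudocount and 71 with voom, where the FPKM fits, which also used another filter and test on 12042 genes, had a median of all genes of -0.11 and -0.12. Among the named members whose call changed, Mrpl11 lost its call without 4 of the 6 libraries in turn (adjusted p 0.0608 to 0.079). Mrps18c lost it with the block and without 5 of 6, Mrps18a without 0 h replicate 2 and Mrps36 without 0 h replicate 2 or 3 h replicate 3. Mrpl13, the last called member, lost its call under 7 alternatives. They were DESeq2 size factors, no filter and the fits without any 1 of 5 libraries (adjusted p 0.0503 to 0.157). Mrps11 was called lower under 6 alternatives and Mrps30 under 4. Mrpl10 was called lower with DESeq2 (adjusted p = 0.042), without 0 h replicate 1 and with voom. At 3 h no named member changed sign. In the other comparisons, where no member was called, signs did change: Mrps9 at 12 h went from 0.01 to -0.27 without 12 h replicate 2, Mrps18c with anti-CD41 from -0.24 to 0.01 without IgG replicate 1, and the members' median with anti-CD41 ran from 0.09 without IgG replicate 1 to -0.08 without IgG replicate 3, with 23 and 55 members negative. The titles number the samples exp1 to exp3 in every group without saying what the number marks. The numbers were not taken to pair samples, since in no comparison was every same-number correlation of deviations over 0.1: the correlations of deviations were 0.015, 0.302 and -0.14 at 3 h, 0.295, -0.046 and 0.2 at 12 h, and 0.145, 0.259 and 0.069 with anti-CD41. With anti-CD41 every sample correlated best with its own number, which is a hint from the data and not from the design. In the other comparisons this was not so. With a replicate block, 57 members were called lower at 3 h, and 0 in both other comparisons, where all genes had 0 calls at 12 h and 89 lower and 295 higher with anti-CD41. With 3 libraries per group, small differences between 12 h and 6 h were not detectable at the spread of the 12 h libraries. Large ones were not called either, up to the log2 difference of 1.46 of Mrpl52 (adjusted p = 0.697 by edgeR).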

Other observations

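Of the 78 members, 18 (23.1%) have a protein-coding neighbour on the opposite strand whose start lies within 1000 bases before theirs. Among all 21951 protein-coding genes in GENCODE, expressed here or not, the share was 6.79%. The share among the genes tested was not counted. In no case was the neighbour itself a member. The 17 neighbours tested at 3 h did not share the members' direction as a group: 5 were called lower, 2 were called higher, and their median log2 difference was 0.02, with 23.0% of all genes called lower.

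Pairs differed. Ptcd2, 81 bases from Mrps27, was lower at 3 h (log2 difference -1.19, adjusted p = 0.00227 by edgeR's quasi-likelihood test), as was Mrps27. Eme2, 29 bases from Mrps34, was also lower (-0.92, adjusted p = 0.0044). Ppp1r10, a regulatory subunit of protein phosphatase 1 that lies 45 bases from Mrps18b, was higher (0.75, adjusted p = 0.00523), while Mrps18b fell by 1.13 on the log2 scale. Ska3, a kinetochore protein gene 49 bases from Mrpl57, was higher as well (1.07, adjusted p = 0.0112), while Mrpl57 fell by 0.77. These pairs were picked after their values were seen.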
